A study of Mus musculus with 139 samples.

Results

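The 10 intestine libraries of animals 1 to 10 fell apart on a small group of microRNAs (miRNAs) that belong to the exocrine pancreas. They were divided by their own level of Mir216a. Libraries 1, 5, 6, 9 and 10 held it at a raw level of at least 10 raw CPM, its counts scaled on all counts of the library, and libraries 2, 3, 4, 7 and 8 held it below 10. This gave 5 libraries with and 5 libraries without the acinar miRNA, of 12 intestine libraries and 134 libraries in the deposited table. The 2 sets lay far from the threshold: the lowest library inside had a raw CPM of 25.7 and the highest outside had 0.156. Since Mir216a itself made the sets, values of these 10 libraries are given below as a description, with their spread and overlap and with no p-value.

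The study sequenced small non-coding RNA from normal mouse tissues. All animals were wild-type C57BL/6J mice, an inbred laboratory strain, and were adults of 3 months. Both sets carry this same genotype, strain and age, with no treatment named in the labels, and the column names mark animals 1 to 10 as female. The labels name the tissue only as intestine, so the stretch of gut that was taken is unknown. Sample numbers were read as animals, with 1 library per animal and organ.

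Acinar cells make up most of the pancreas and secrete digestive enzymes, and Mir216a, Mir216b and Mir217 are transcribed from neighbouring genes and serve as markers of these cells. Mir375 is the best known miRNA of the endocrine islet, but is also made by endocrine cells of the gut wall. Gut epithelium is known for Mir192, Mir194 and Mir215. Several miRNAs are encoded inside the Hox gene clusters, whose genes are switched on by position along the body axis, so their levels can differ along the gut.

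The mature forms that the results turn on are shown 5′ to 3′ from the RefSeq annotation of GRCm38.p6, with the seed (bases 2 to 8, which pair with target mRNAs) in capitals. The acinar, pancreas and epithelial miRNAs come first, then the Hox-encoded ones.
miR-217-5p: uACUGCAUcaggaacugacugga
miR-148a-3p: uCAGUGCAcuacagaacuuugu
miR-152-3p: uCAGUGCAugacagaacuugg
miR-29a-3p: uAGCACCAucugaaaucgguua
miR-29c-3p: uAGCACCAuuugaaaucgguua
miR-192-5p: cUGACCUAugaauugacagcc
miR-215-5p: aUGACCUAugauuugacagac
miR-194-5p: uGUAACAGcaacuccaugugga
miR-10a-5p: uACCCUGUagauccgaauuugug
miR-10b-5p: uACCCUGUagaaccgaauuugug
miR-196b-5p: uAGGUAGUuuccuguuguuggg

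These sequences fall into families that matter for the counts. miR-148a-3p and miR-152-3p share their seed and differ at 3 of 21 positions compared, and miR-29a-3p differs from miR-29c-3p at 1 of 22. miR-192-5p and miR-215-5p share their seed and differ at 3 of 21, and miR-10a-5p and miR-10b-5p differ at 1 of 23. The genes Mir194-1 and Mir194-2 yield the same miR-194-5p, so how reads were divided between these copies cannot be told from the table. Counts are given per hairpin gene, so the arms of a hairpin are not separated.

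The 3 acinar genes lie on the plus strand of chromosome 11 (GRCm38). Mir216b is at chr11:28746191-28746276, Mir216a at chr11:28757012-28757083 and Mir217 at chr11:28763728-28763835, the latter pair inside an intron of the long non-coding RNA Gm12082. The gap between Mir216b and Mir216a is 10735 bases, and that between Mir216a and Mir217 is 6644 bases. Mir216b and Mir217 are thus neighbours of the gene that made the sets and are no separate evidence for them.

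Levels below are miRNA CPM, counts scaled to CPM on the summed miRNA counts of a library. Mir216a stood at 172, 336, 385, 368 and 151 miRNA CPM in libraries 1, 5, 6, 9 and 10. In libraries 2, 3, 4, 7 and 8 it stood at 0.232, 0.169, 0.207, 0 and 0 miRNA CPM, which is 2, 1, 1, 0 and 0 counts. Every library of the first set was far above every library of the second.

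Mir217 followed the same division, with 220, 185, 246, 387 and 171 miRNA CPM in libraries 1, 5, 6, 9 and 10 and at most 0.235 in the other 5. Mir216b was lower throughout, at 57.2, 62.8, 45.3, 80.0 and 61.6 miRNA CPM against at most 0.235. Over the sets, Mir216a averaged 282 ± 112 (SD, n = 5) against 0.122 ± 0.113 miRNA CPM (SD, n = 5). The mean difference in log2(miRNA CPM + 1) was 7.88 ± 0.30 (SE) for Mir216a, 7.75 ± 0.22 for Mir217 and 5.88 ± 0.14 for Mir216b, a scale that understates the change where a set is near 0.

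Summed over each set, the 3 genes took 7515 of 14197659 miRNA counts in the libraries with and 7 of 27047121 in those without. The pooled ratio was 2045, with an exact 95% interval of 992 to 5089. For Mir216a alone it was 1538, with an interval of 600.0 to 5648. Reads carry no molecular identifiers, so these intervals cover counting error only. Mir216c, also listed as acinar, lies on the minus strand opposite Mir216b and was at 0 in all 10 libraries. For a count of 0, 3 counts would correspond to 0.349 miRNA CPM in the deepest library and 4.83 in the shallowest.

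**Figure D1:**
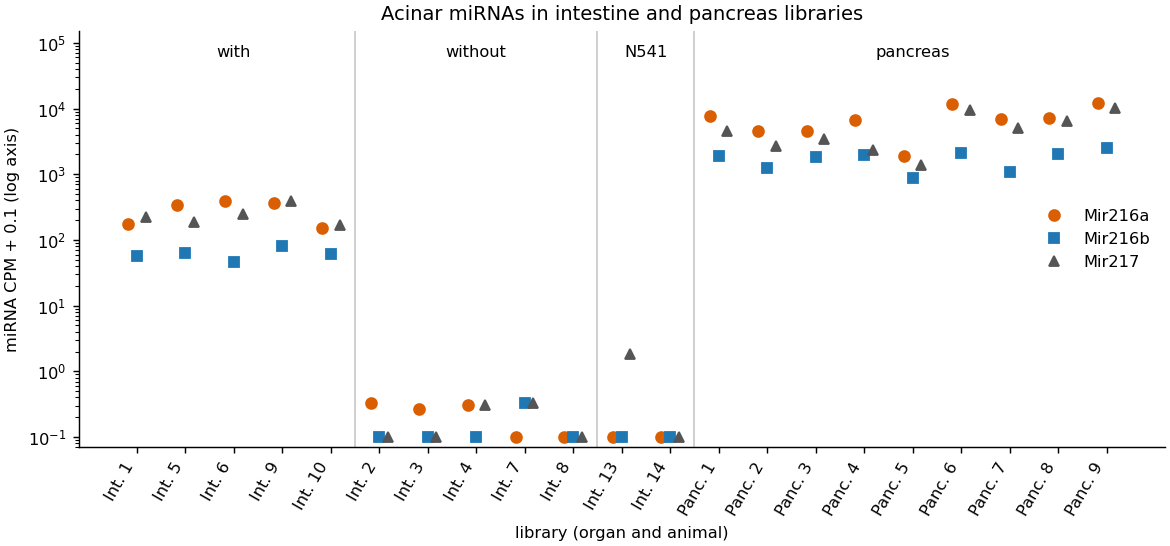
Levels of Mir216a (circles), Mir216b (squares) and Mir217 (triangles) in miRNA CPM plus 0.1 on a log axis, 1 column per library, for the 5 intestine libraries with, the 5 without, the 2 intestine libraries of the pool N541 and the 9 pancreas libraries. The libraries with lie between 45.3 and 387 miRNA CPM, below every pancreas library shown and above every other intestine library.

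The 9 pancreas libraries of the same animals set the scale for these values. They held Mir216a at 7061 ± 3325 miRNA CPM (SD, n = 9), Mir217 at 5061 ± 3100 and Mir216b at 1715 ± 534. In the 38 liver, spleen, kidney and lung libraries of the same pool as the pancreas, Mir216a had 12 counts in all, Mir216b 7 and Mir217 20, of 276354179 miRNA counts. The 2 further intestine libraries came from animals 13 and 14 in the library pool N541. Their columns are marked male, so sex and pool go together there. They held 1 Mir217 count and neither of the others among 2416200 miRNA counts, so they resemble the libraries without. Another library of that pool, labelled as pancreas of animal 11, was not used here. Its acinar sum was 729 miRNA CPM, 6 of 8227 miRNA counts, against 6289 and 11728 in pancreas of animals 12 and 13. It carries index number 33, the 2 intestine libraries 35 and 36, and pancreas of animals 12 and 13 carries 14 and 15.

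The summed acinar miRNAs came to 3.25, 4.22, 4.88, 6.03 and 2.77% of the pancreas mean in intestine libraries 1, 5, 6, 9 and 10. In the libraries without, the highest was 0.0034%. Set against the pancreas library of the same animal, the shares were 3.21, 14.2, 2.90 and 3.34% for animals 1, 5, 6 and 9, and no pancreas library of animal 10 was used here. The value of animal 5 stands apart because its pancreas library had the lowest acinar sum of the 9, at 4120 miRNA CPM. The ratio of Mir216a to Mir217 was 0.780, 1.82, 1.56, 0.951 and 0.885 in the intestine libraries with, and 1.13 to 2.77 in the 9 pancreas libraries. Thus 3 of the 5 lay below the range of these 9. Pancreas libraries of pool N541, outside the 9, varied. Mir216a and Mir217 stood at 4366 and 7106 miRNA CPM in animal 13, on 51 and 83 counts, and at 3400 and 2800 in animal 12. In animal 11 each had 3 counts.

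Pancreas miRNAs were then defined from libraries that the division did not use. Pancreas was compared with liver, spleen, kidney and lung of the same pool by edgeR's quasi-likelihood test with Benjamini-Hochberg adjustment over 379 miRNA rows. At an adjusted p below 0.05 and a log2 fold change of at least 1, 82 rows (21.6%) were higher and 131 (34.6%) lower in pancreas. With library totals of miRNA counts in place of TMM factors, 103 were higher and 93 lower. The miRNAs with the largest log2 fold changes after the acinar cluster were Mir6969 (12.05), Mir7b (11.75), Mir375 (10.41), Mir802 (8.87), Mir153 (7.23), Mir184 (5.76) and Mir7-2 (5.38).

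Among 265 miRNA rows with a mean of at least 5 miRNA CPM over the 10 intestine libraries, 24 (9.06%) had all 5 libraries with above all 5 without. Another 4 rows (1.51%) had all 5 below, and 237 overlapped. The acinar genes passed this filter only through the libraries that carry them. Leaving out library 1 gave 44 higher rows and leaving out library 2 gave 38, and leaving out library 10 gave 11 lower rows. Of the 71 kept rows called higher in pancreas, 14 (19.7%) were among the 24 and none among the 4. Without the 3 acinar genes, which the division fixed, this was 11 of 68 (16.2%), with a median log2 difference of 0.68, against 21 of all 262 other rows (8.02%) and a median of 0.33. These counts are descriptive, since the division used the same libraries.

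The balance depends on the scaling. With TMM factors, which assume that most rows are alike, 9 rows were higher and 11 lower, and the median log2 difference over all rows was −0.11. Those 9 were all among the 24: the 3 acinar genes, Mir193a, Mir34c, Mir574, Mir148a, Mir29c and Mir29a. On total counts the median was −1.15, because transfer RNA (tRNA) filled most of 4 of the 5 libraries with, and then 4 rows were higher and 2 lower. Differences below are read against the shift of 0.33.

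Mir148a, the most abundant miRNA of the pancreas group, had the smallest standard error of the 24. It stood at 39979, 44797, 40937, 46981 and 32894 miRNA CPM in libraries 1, 5, 6, 9 and 10. In libraries 2, 3, 4, 7 and 8 it stood at 18309, 19116, 17193, 16808 and 18321. The log2 difference was 1.19 ± 0.09 (SE, n = 5 and 5) on miRNA counts and 0.73 with TMM factors, without overlap either way, but it reversed to −0.48 on total counts. Pancreas held 446811 ± 140426 miRNA CPM (SD, n = 9), with a log2 fold change of 3.69 over the 4 organs (adjusted p = 4.87e-17, edgeR).

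Mir148a and its seed partner Mir152 were both in the group that did not overlap. Mir152 stood at 290 to 679 miRNA CPM in the libraries with and 146 to 249 in those without, a log2 difference of 1.05 ± 0.26. With TMM factors its libraries overlapped, at 0.60.

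Mir6969, in an intron of Clps, the gene of the pancreatic lipase cofactor colipase, was too low to pass the mean of 5 miRNA CPM. It stood at 11.5, 6.44, 9.64, 11.1 and 6.49 miRNA CPM in libraries 1, 5, 6, 9 and 10. In libraries 2, 3, 4, 7 and 8 it stood at 0.349, 1.18, 0.829, 0.235 and 0.873, with no overlap and a log2 difference of 2.56 ± 0.23. Pancreas averaged 129 miRNA CPM. It lies on chromosome 17, apart from the acinar cluster. In library 5, 3 counts correspond to 4.83 miRNA CPM, so its value there rests on few counts. The source of these reads was not tested.

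The other members of the pancreas list overlapped between the sets. Mir34a, a target of the p53 pathway, stood at 85.6 to 352 against 65.4 to 100.3 miRNA CPM, and libraries 1 and 5 were its highest. Mir219a-1 stood at 28.4 to 232 against 13.1 to 56.4 miRNA CPM, and Mir802 at 661 to 1198 against 522 to 756. Mir219a-2 did not pass the filter, at 0.349 to 1.93 against 0 to 0.414 miRNA CPM. Of the list of 6 pancreas miRNAs, 4 were kept and 1, Mir148a, did not overlap, with a median log2 difference of 1.21.

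Of the endocrine miRNAs, Mir375 divided the libraries and the rest did not. It stood at 4891, 4765, 5563, 6522 and 4714 miRNA CPM in libraries 1, 5, 6, 9 and 10, and at 2411, 2935, 2554, 3242 and 3974 in libraries 2, 3, 4, 7 and 8. All of the former lay above the latter, but the gap to library 8 was small. The log2 difference was 0.82 ± 0.16, became 0.37 with overlap under TMM factors, and reversed to −0.84 on total counts. Pancreas held 59732 ± 26481 miRNA CPM (SD, n = 9), and its test against the 4 organs gave an adjusted p of 1.07e-45 (edgeR).

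Mir184, also made in islets, stood at 36.0, 30.6, 25.1, 16.1 and 11.2 miRNA CPM in libraries 1, 5, 6, 9 and 10 and at 4.70 to 11.9 in those without, so only library 10 overlapped. Mir153, encoded in the islet autoantigen gene Ptprn2, stood at 15.2 to 27.4 against 12.4 to 20.4 miRNA CPM. The Mir7 family, abundant in islets, did not follow the division. Mir7b stood at 57.6, 167, 20.2, 12.1 and 8.98 miRNA CPM in libraries 1, 5, 6, 9 and 10, and at 65.0, 25.99, 22.8, 10.3 and 10.2 in libraries 2, 3, 4, 7 and 8. The log2 differences of Mir7b, Mir7-1 and Mir7-2 were 0.47 ± 0.89, 0.07 ± 0.90 and −0.11 ± 1.03, each within its own error.

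A simple sum was computed as a reference. It adds to the mean of the libraries without the mean acinar share of the pancreas, 4.23%, of the distance to the pancreas mean, and says what log2 difference of the means that would give. For Mir148a this came to 1.01, and the measured log2 difference of the means was 1.20. For Mir375 it came to 0.84 against 0.81 measured, for Mir152 to 0.91 against 1.10, for Mir184 to 1.42 against 1.39 and for Mir34a to 1.26 against 1.42. These values are on miRNA counts, where the median log2 difference over all kept rows was already 0.33. With TMM factors the differences of Mir148a, Mir375 and Mir152 were smaller, as given above, and the sum was not computed on that scaling. How near a row lies to the sum therefore depends on the scaling.

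Of the 20 rows outside the acinar cluster for which the sum gave at least 0.5, 14 were measured above it and 6 below, and the 5 just named are among those nearest to it. The rows farthest above it were Mir5121, at 3.09 measured against 0.95, and Mir6236, at 1.89 against 0.65, and both overlapped between the sets. Gm23935, a row with a gene model name only, was at 2.26 against 1.26, also with overlap. For Mir7b the sum gave 2.03 against 0.96 measured, for Mir7-1 1.01 against 0.61 and for Mir7-2 1.08 against 0.60. Mir193a lay above it, at 2.001 against 1.31, and so did Mir574, at 1.68 against 0.68. Of the 20 rows, 6 had no overlap between the sets: Mir148a, Mir152, Mir375, Mir193a, Mir676 and Mir574. The pancreas means themselves rest on shallow libraries, of 22916 to 831061 miRNA counts.

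Library by library, the excess of Mir148a over the mean of the libraries without came to 5.14, 6.26, 5.36, 6.77 and 3.48% of the distance to the pancreas mean in libraries 1, 5, 6, 9 and 10. For Mir375 the values were 3.29, 3.07, 4.48, 6.17 and 2.98%. Both values of a library share its miRNA total, as does the acinar sum that set the share.

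**Figure D2:**
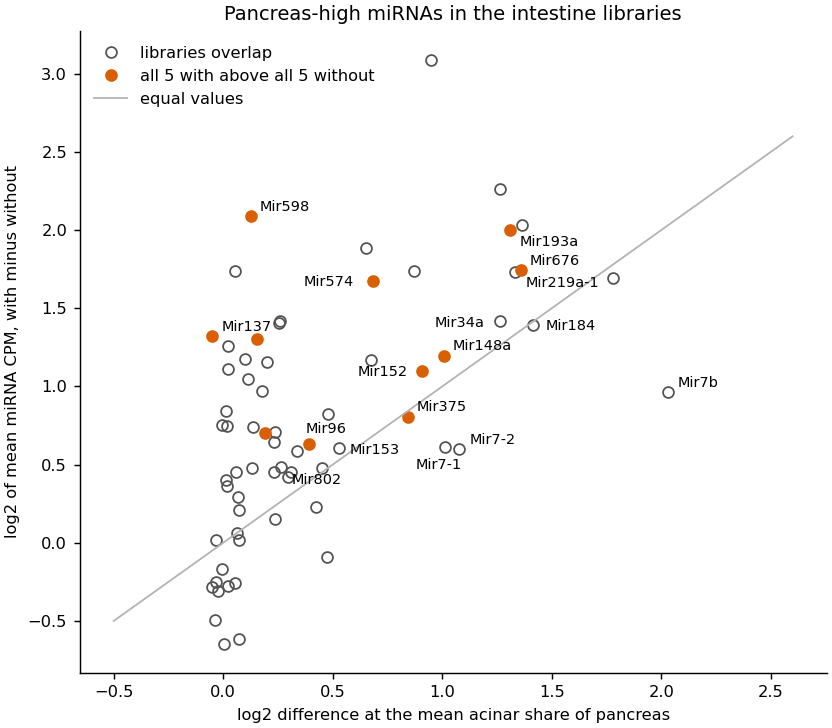
Each point is 1 of the 68 miRNA rows called higher in pancreas and kept in intestine, the acinar genes left out. The x axis is the log2 difference given by the sum described above and the y axis the measured log2 difference of mean miRNA CPM plus 1, with minus without, and filled points are rows whose libraries do not overlap. Mir148a, Mir375, Mir152, Mir184 and Mir34a lie near the line of equal values, Mir7b lies below it, and Mir598, Mir137 and Mir5121 (the highest point, not labelled) lie well above it.

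Some of the miRNAs with the largest differences are not abundant in pancreas. Mir598, in an intron of Xkr6, stood at 50.8, 57.9, 37.6, 19.6 and 14.97 miRNA CPM in libraries 1, 5, 6, 9 and 10, and at 14.4, 6.92, 9.12, 5.64 and 2.62 in libraries 2, 3, 4, 7 and 8. Its log2 difference was 2.07 ± 0.51. Its pancreas mean, 26.7 miRNA CPM, was below the 36.2 of the libraries with but above each library without. Mir598 was called higher in pancreas, with a log2 fold change of 1.28 over the 4 organs (adjusted p = 5.82e-04, edgeR). Mir34c, a miRNA of ciliated epithelia and p53 responses, stood at 61.6 to 125 against 15.02 to 33.9 miRNA CPM, a log2 difference of 1.93 ± 0.31, and was not called in pancreas.

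Mir137, a neuronal miRNA, stood at 16.8 to 38.6 against 6.98 to 13.5 miRNA CPM, with a log2 difference of 1.31 ± 0.27. Pancreas held 0.951 miRNA CPM of it, far below both sets. Its call as higher in pancreas (adjusted p = 0.0304, edgeR) was lost with the animal as a block (adjusted p = 0.0516). Mir129-2, another neuronal miRNA, stood at 11.2 to 28.97 against 5.53 to 11.0 miRNA CPM, a log2 difference of 1.26 ± 0.29. Pancreas held 28.8 miRNA CPM of it, a log2 fold change of 4.19 over the 4 organs (adjusted p = 6.06e-15, edgeR). Both reversed on total counts, to −0.17 for Mir137 and −0.19 for Mir129-2. The 11 listed neuronal miRNAs, which include Mir137 but not Mir129-2, summed to 112 to 243 miRNA CPM against 86.4 to 190, and of the 8 kept only Mir137 did not overlap.

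Mir193a, Mir676 and Mir574 were higher in pancreas and without overlap here. Mir193a stood at 53.8 to 134 against 11.0 to 30.1 miRNA CPM, a log2 difference of 2.02 ± 0.35. Mir676 stood at 37.01 to 73.3 against 8.91 to 23.6, a difference of 1.81 ± 0.32, and Mir574 at 120 to 165 against 26.8 to 72.1, a difference of 1.80 ± 0.32. In all, 18 of the 24 miRNAs, the acinar genes among them, had a pancreas mean above the mean of the libraries with, and 6 had one below it. The same share was not counted over all kept rows, so these counts do not tie the 24 to pancreas. Mir29a and Mir29c, named here after their values were seen, were 1277 to 1775 against 569 to 825 and 213 to 417 against 115 to 152 miRNA CPM. Neither was called in the main pancreas test, but Mir29c was called higher in pancreas with the animal as a block (adjusted p = 3.11e-04, edgeR).

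**Figure D3:**
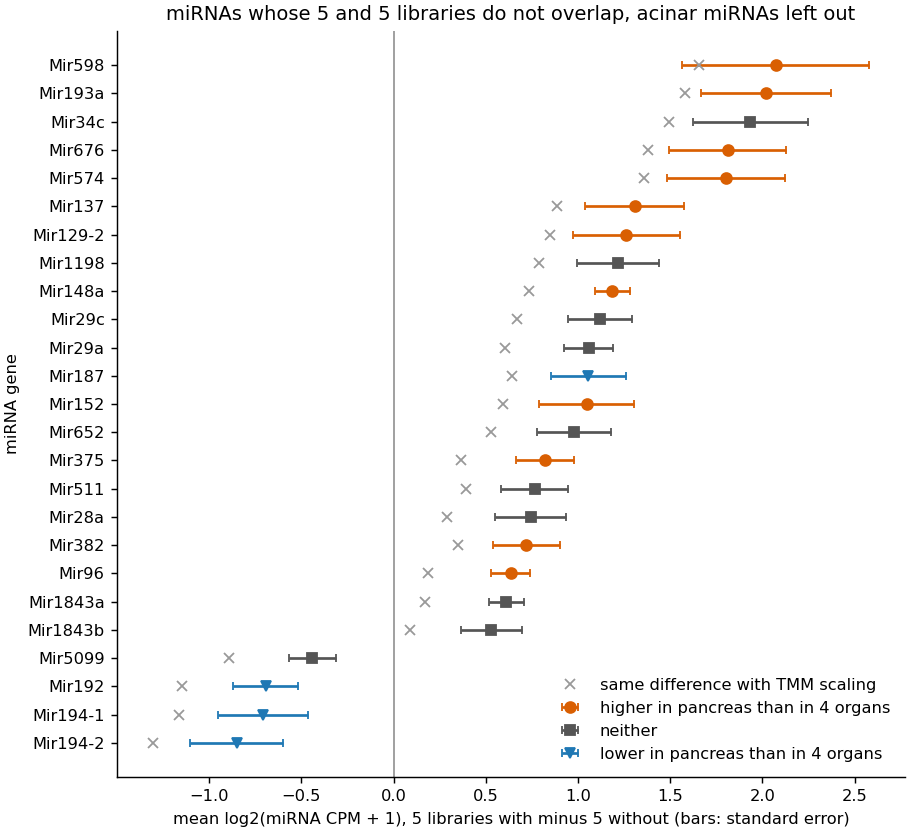
Mean difference in log2(miRNA CPM + 1), 5 libraries with minus 5 without, with its standard error, for the 25 miRNA rows whose libraries do not overlap, the acinar genes left out; marker and colour give the pancreas call and crosses the same difference with TMM factors. Values run from −0.85 for Mir194-2 to 2.07 for Mir598, and all crosses lie to the left of their points.

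Of the 4 miRNAs lower in the libraries with, 3 were Mir192, Mir194-1 and Mir194-2, markers of the gut epithelium. Mir192 stood at 101528, 67558, 58460, 90112 and 84706 miRNA CPM in libraries 1, 5, 6, 9 and 10, and at 117125, 135623, 158209, 104663 and 128206 in libraries 2, 3, 4, 7 and 8. Its log2 difference was −0.69 ± 0.18. Mir194-1 stood at 33433 to 73049 against 76580 to 102623 miRNA CPM, and Mir194-2 at 2364 to 5141 against 5493 to 7913, with log2 differences of −0.71 ± 0.25 and −0.85 ± 0.25. Libraries 5 and 6 were the lowest for all 3 genes, and the gap between the sets was small for Mir192.

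Mir194-2 and Mir192 lie 115 bases apart on chromosome 19, and Mir194-1 and Mir215 lie 195 bases apart on chromosome 1. Mir215 did not share the difference of its neighbour, at 102559 to 195420 against 81894 to 246653 miRNA CPM. Mir31, the other listed epithelial miRNA, also overlapped, at 735 to 1818 against 856 to 1550 miRNA CPM. With TMM factors the log2 differences were −1.16 for Mir194-1 and −1.30 for Mir194-2, still without overlap, and −1.15 for Mir192, with overlap. Adding the mean acinar share of pancreas would by the same sum give −0.06 for each of the 3, and the measured values were lower. The share has its own spread, and the cause of the lower values was not tested.

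Mir5099 was the other lower row, at 198 to 253 against 261 to 398 miRNA CPM, and was not called in pancreas. The summed intestinal epithelial markers overlapped, at 204632 to 358316 against 318589 to 456984 miRNA CPM. Smooth muscle markers overlapped too, at 134211 to 344944 against 78797 to 194374, with medians of 227784 and 105281. In bulk tissue, fewer cells of a type and less RNA per cell cannot be told apart. No marker on the cell type lists, which do not hold Mir216c, was at 0 in all 10 libraries, and outside the acinar, islet and pancreas lists no list sum divided the libraries. The part of these cell types in the differences was not tested.

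Gut position was examined through the 6 Hox-encoded miRNAs. Mir10a, 993 bases from Hoxb4, stood at 183879, 117982, 114435, 111393 and 108102 miRNA CPM in libraries 1, 5, 6, 9 and 10, and at 151692, 208521, 180764, 128781 and 102345 in libraries 2, 3, 4, 7 and 8. Mir10b, in an intron of Hoxd3 and Hoxd4, stood at 22361 to 78780 against 35506 to 108028 miRNA CPM. On miRNA counts both overlapped, with log2 differences of −0.27 ± 0.23 and −0.32 ± 0.45. With TMM factors both differences were more negative. For Mir10a, only library 1 of the libraries with then lay within the range of the libraries without, and the rest lay below it. The ratio of Mir10a to Mir10b ran from 1.52 to 4.83 in the libraries with and from 1.93 to 2.97 in those without.

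The other Hox miRNAs were low in every intestine library. Mir196b, in an exon of Hoxa9, reached at most 5.59 miRNA CPM in the libraries with and 8.46 in those without, against 246 to 373 in kidney and 142 to 350 in bone marrow. Mir196a-1, 6192 bases from Hoxb9, was at 0 in all 5 libraries with and at most 0.622 in the others. Mir196a-2, in an intron of Hoxc5, reached 1.43 against 0.414 miRNA CPM. Mir615, in the same gene, stood at 0.964 to 8.98 against 2.90 to 7.75. None of the 6 separated the sets, but only Mir10a and Mir10b passed the filter of a mean of at least 5 miRNA CPM. Mir196a-1 and Mir196a-2 were too low for a difference to be detectable. Mir196b and Mir615 rest on few counts in the shallowest libraries, where 3 counts correspond to 4.83 miRNA CPM in library 5 and 2.89 in library 6.

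**Figure D4:**
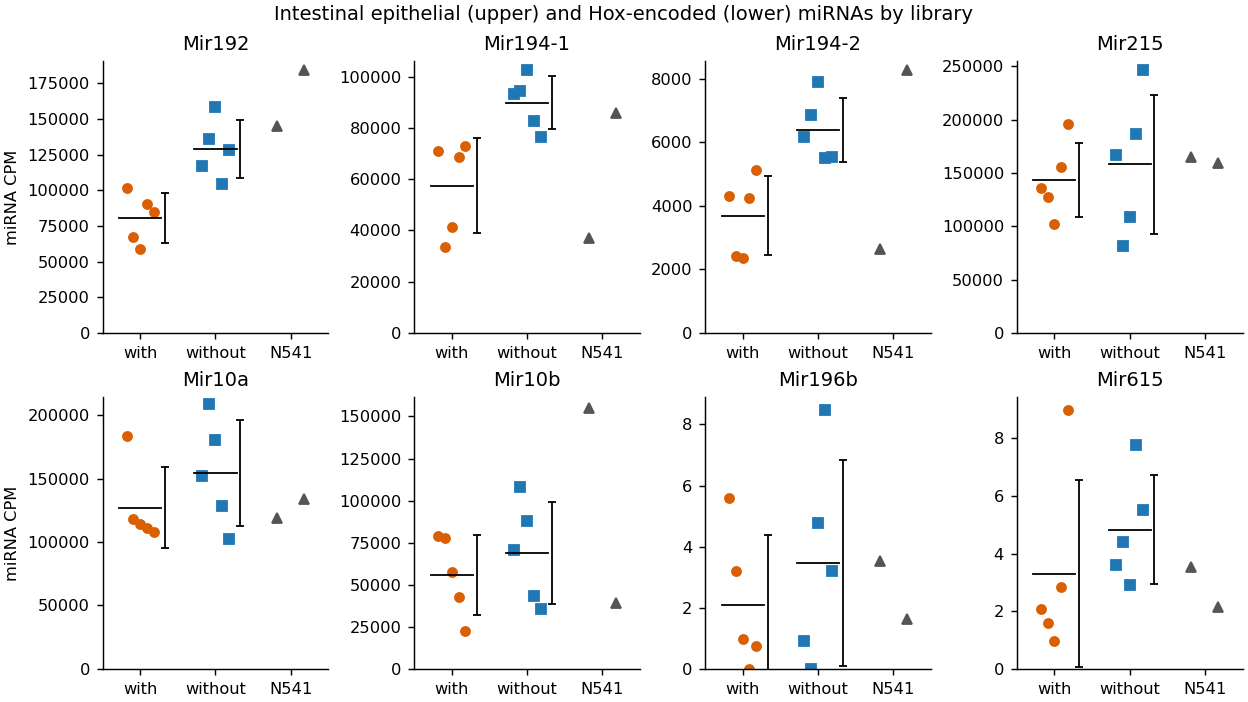
miRNA CPM of 4 epithelial (upper) and 4 Hox-encoded (lower) miRNAs, 1 point per intestine library, for the 5 with, the 5 without and the 2 of pool N541; lines are means and bars 1 SD (n = 5), cut at 0. Mir192, Mir194-1 and Mir194-2 do not overlap between the sets, while Mir215 and all Hox-encoded miRNAs do.

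The same 2 sets of animals were compared in 9 other organs, in libraries that the division did not use. In liver, spleen, kidney, pancreas, lung, brain, muscle, heart and bone marrow, edgeR's quasi-likelihood test called 0 of 2698 organ-by-row tests (0%). At an unadjusted p under 0.05 there were 62, and DESeq2's Wald test called 0, with 89 at that level. The smallest adjusted p in any organ was 0.514 in the main edgeR test and 0.1205 in DESeq2's Wald test, both in pancreas. Without the row filter it was 0.0991 (edgeR), also in pancreas.

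For the acinar sum, none of the 9 organs passed an exact two-sided permutation test adjusted over the organs. The smallest adjusted p was 0.786, in spleen (exact p = 0.0873, adjusted p from 0.429 to 1 over the alternatives), where the sets stood at 0.141 to 1.08 and 0 to 0.364 miRNA CPM. In pancreas the animals with stood at 4120 to 24958 and the animals without at 8526 to 15629 miRNA CPM (adjusted exact p = 1). Brain held 1.39 to 30.4 miRNA CPM across both sets, and bone marrow 0 in every library. The smallest p this test can give in an organ is 0.00794, and an organ that alone reached it would have an adjusted p of 0.0714, so the test could not pass 0.05 in 1 organ alone and says little about a difference there.

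**Figure D5:**
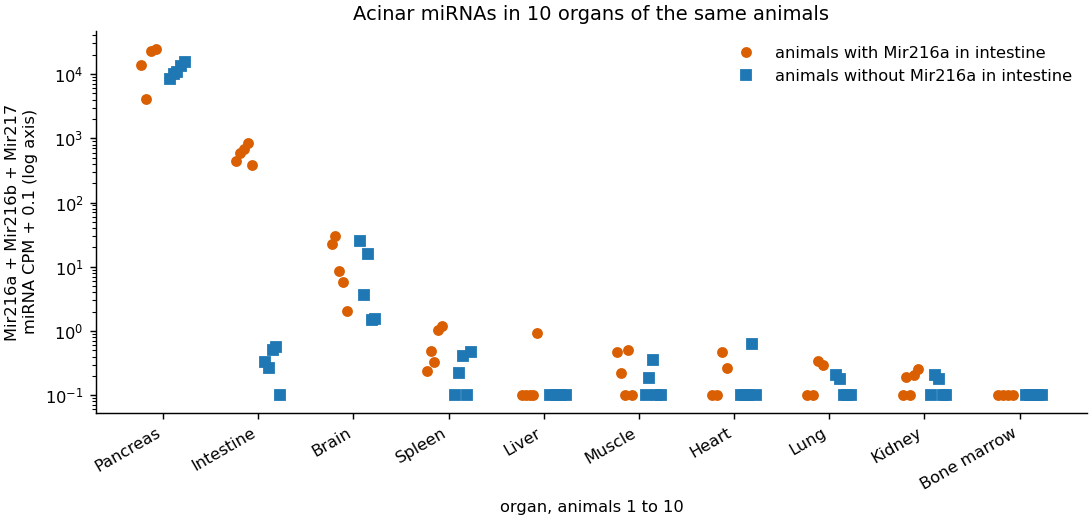
Summed Mir216a, Mir216b and Mir217 in miRNA CPM plus 0.1 on a log axis, 1 point per library of animals 1 to 10 in 10 organs, circles for animals whose intestine library held Mir216a and squares for the others. The sets separate in intestine, where they were defined, and overlap or are all at 0 in every other organ.

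Library composition moved with the division. Counts on tRNA genes made up 8.73, 88.7, 92.7, 77.2 and 63.7% of libraries 1, 5, 6, 9 and 10, and 30.1, 5.68, 43.4, 52.2 and 5.46% of libraries 2, 3, 4, 7 and 8. Only library 1 had a low share among the libraries with, and it can be set on total counts beside libraries 3 and 8, which also had little tRNA. Mir148a was 34520.5 raw CPM in library 1 against 16461.7 and 16307.3, Mir193a 46.4 against 9.45 and 12.95, and Mir375 4223 against 2527 and 3537. Mir192 was 87667 raw CPM in library 1 against 116794 and 114118. Leaving out libraries 5, 6 and 9, a choice made after seeing the data, set 2 libraries with against 5 without. Of 261 rows, 31 (11.9%) were then higher and 6 (2.30%) lower. Fewer libraries separate more easily by chance, so these counts cannot be set beside those of 5 against 5.

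All 10 libraries came from the library pool N469, and the 9 pancreas libraries used here from N467. The intestine libraries carry the index numbers 11 to 15 and 35 to 39, which kidney carries in N467. Pancreas carries 16 to 20 and 40 to 43 there, which heart carries in N469. The heart libraries of animals 1 to 10 held an acinar sum of at most 0.522 miRNA CPM and the kidney libraries at most 0.153.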

How the data were processed

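Small RNA libraries (Illumina TruSeq kit, size-selected, single-read sequencing, per the labels' protocols) were made by the authors from 1 tissue sample per animal and organ. The deposited table holds raw counts per small non-coding RNA gene, made with STAR 2.5.1 and featureCounts on mm10 (GRCm38), per the submitters' processing notes; no source used here gives the settings for strand or multiply mapped reads. Of 6114 rows, 2206 were used as miRNA; Snord43, which the table classes as miRNA, was left out, and dots in copy names were read as hyphens. The 3 testis columns and the liver library of animal 3 were not analysed here.

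Intestine libraries held 3860414 to 15496948 counts, of which 621426 to 8603602 were on miRNA rows. Values are miRNA CPM, log2(miRNA CPM + 1), and rows were kept at a mean of at least 5 miRNA CPM over the 10 libraries whichever set was high. A row did not overlap where all 5 libraries of a set lay beyond all 5 of the other. Count tests used edgeR 4.0.16 in R 4.3.3 (TMM, filterByExpr with a minimum count of 10, quasi-likelihood F test, Benjamini-Hochberg adjusted p below 0.05, absolute log2 fold change of at least 1), fitted on all rows, and DESeq2 1.42.0 as an alternative. The scripts were tested on simulated data. Permutation tests were exact (scipy 1.17.1). In the tests within an organ, p-values measure the spread between animals, 1 library each. The main pancreas test treated libraries of different organs of the same animal as independent, and the animal block was an alternative.

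Sample numbers were read as animals, since the series text counts 14 individuals and the titles are numbered up to 14. Deviations from organ means bore this out only weakly: the median r was 0.138 over 89 same-number library pairs (−0.50 to 0.62) against −0.028 over 794 others (−0.69 to 0.63). Genes were named as members of the acinar, endocrine, pancreas, Hox and epithelial lists, the 10 largest differences each way without overlap, and the 10 largest pancreas fold changes. The sets, members and lists were chosen with earlier results of these data known. Alternatives were total-count, TMM and trimmed scaling, other pseudocounts and filters, other thresholds, left-out libraries and an animal block.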

Additional observations from a re-analysis of the deposited data

Results flagged for a closer look

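Among 65 groups of 5 libraries examined, 5 held a library whose gap to the nearest other was large for the range of its group, a rule by which chance picks about 1 in 20 groups. Mir10a stood at 183879 miRNA CPM in intestine library 1, against 108102 to 117982 in the other 4 libraries with. Mir615 stood at 8.98 miRNA CPM in library 10, against 0.964 to 2.86 in the other 4. Among the libraries without, Mir7b stood at 65.0 miRNA CPM in library 2, against 10.2 to 25.99 elsewhere. Library 7 held Mir153 at 20.4 miRNA CPM, against 12.4 to 14.5, and Mir129-2 at 11.0 miRNA CPM, against 5.53 to 6.92.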

How the results depend on the processing

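The 24 higher and 4 lower rows of the intestine division became 4 and 2 on total counts, 9 and 11 with TMM factors, and 5 and 0 with the division set at a raw CPM of 50, which leaves 3 libraries against 7. A mean of at least 50 miRNA CPM, which keeps fewer rows, left 13 higher. Leaving out 1 library at a time gave 23 to 44 higher and 4 to 11 lower rows. On total counts the log2 differences of Mir375 (−0.84), Mir148a (−0.48), Mir137 (−0.17) and Mir129-2 (−0.19) reversed, and at the threshold of 50 that of Mir194-1 (0.028) did. In the pancreas comparison the fold changes of Mir196a-1 (0.79) and Mir196a-2 (0.063) reversed with DESeq2's Wald test, and those of Mir34c (0.12) and Mir5099 (0.17) with library totals; none of these 4 was called. The cause was not tested. With the animal as a replicate block, 80 rows were higher and 132 lower in pancreas, against 82 and 131. Among the genes named by the lists and ranks, only Mir137 changed its call. Mir29c, named after its values were seen, was called higher with the block. Its log2 fold change was then 1.22 (adjusted p = 3.11e-04, edgeR), against 0.70 in the main test. No paired analysis was possible for the intestine division because each animal is in 1 set only. Calls between the sets of animals in other organs were 0 without any 1 animal, and so was the number of organs passing for the acinar sum, a test that 1 organ alone could not pass. The pancreas libraries, 3 of 9 under 50000 miRNA counts, limit the pancreas means.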
